A study of Homo sapiens with 4 samples.

Results

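The genes of the extracellular matrix and of its receptors were followed in m6A-seq of X-rayed HEK293T cells. Members were selected by gene symbol: collagen chains, laminins, nidogens, agrin and perlecan, fibrillins and fibulins, integrin subunits, the ADAM, ADAMTS and MMP proteases, TIMP inhibitors, and the prolyl 4-hydroxylases, lysyl hydroxylases and lysyl oxidases that modify collagen. The group was chosen on measured values, because the input RNA of COL27A1 and COL6A2 fell in ALKBH5 knockdown cells. For this reason every difference between knockdown and control below is a description and not a test. The symbols matched 135 of 14911 listed genes, and 46 members averaged 50 or more counts per library, as did 5320 genes in all. A further 37 annotated coding genes of these families are not analysed here.

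HEK293T cells are an established line from human embryonic kidney that expresses the large T antigen of SV40. The study asked how ALKBH5, an enzyme that removes m6A from RNA, acts after X-ray exposure (10 Gy in the methods). There were 4 libraries with 1 per group: input and m6A-IP of cells that carry the control shRNA (shCTL), and the same of cells in which an shRNA targets ALKBH5 (shA5). All cells were X-rayed and carried a pLKO.1 lentivirus, so no unexposed cells enter the comparison. The time from exposure to harvest and the ALKBH5 shRNA used for these libraries are not given in the sources used here. In m6A-seq, poly(A) RNA is fragmented and pulled down with an antibody against m6A. Reads in the IP relative to the input therefore rise with the m6A on a transcript. Here this ratio was taken over all counts of a gene and scaled by library totals. It compares genes with each other, and a change of m6A shared by all genes would not show in it. With 1 library per group no difference has a replicate check. Intervals are exact 95% intervals of the counts and cover counting error only.

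The extracellular matrix is built from collagen triple helices and from glycoproteins that link them. Laminins, type IV collagen, nidogens and perlecan form the basement membrane, the thin sheet under epithelia, and integrins anchor cells to it. ADAMTS and MMP proteases process and degrade the matrix, TIMPs inhibit these proteases, and lysyl hydroxylases and lysyl oxidases stabilise collagen fibres. m6A is written within the RRACH sequence (R stands for a purine, H for any base but G), mostly away from splice junctions.

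Collagen genes have an unusual exon layout, which is shown here because the symbol rule did not use it. A collagen helix repeats a glycine followed by 2 other residues, and many collagen exons are 54 bases long and hold 6 such repeats. Exons of this length made up 33 of the 61 exons of COL27A1, 21 of the 51 exons of COL1A1 and 14 of the 32 exons of COL9A3. COL9A2 likewise had 14 of 32. They were few in COL6A2 (2 of 28), COL6A1 (3 of 35), COL4A1 (2 of 52) and COL4A2 (1 of 48). COL23A1 (3 of 29) and COL7A1 (5 of 118) had few as well. One such exon of COL27A1, COL1A1, COL9A3 and COL6A2 is given with the glycine codons in capitals (GRCh38, read on the gene's strand, all coding).
COL27A1 exon 4, chr9:114178291-114178344, plus strand: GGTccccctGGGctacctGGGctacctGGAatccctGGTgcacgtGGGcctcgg
COL1A1 exon 8, chr17:50197949-50198002, minus strand: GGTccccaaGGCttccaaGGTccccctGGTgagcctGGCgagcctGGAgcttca
COL9A3 exon 5, chr20:62819929-62819982, plus strand: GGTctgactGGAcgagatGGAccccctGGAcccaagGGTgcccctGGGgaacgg
COL6A2 exon 6, chr21:46115872-46115925, plus strand: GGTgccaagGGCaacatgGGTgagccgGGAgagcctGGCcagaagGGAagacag

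Library totals lay between 1311390 counts (shA5 input) and 3944402 (shCTL m6A-IP), and the shA5 input limits the precision of changes in input RNA and in enrichment. Members took 1.11% of input counts in shCTL and 0.867% in shA5, and 1.10% and 0.878% of IP counts. ALKBH5, the targeted gene, had 486 input counts in shCTL and 145 in shA5, a log2 change of -0.97 (interval -1.25 to -0.70). Of 8 markers of HEK293T cells 7 were above 3 counts in at least 1 library, and together they summed to 119 to 192 CPM. The neurofilament gene NEFL, KRT8 and LIN28B had the most counts, while VIM had 2 to 8 counts and PAX2 had 1 count in all. The bar of 3 counts is low, since the endothelial marker KDR (up to 14 counts) and the leukocyte marker CD68 (up to 16) also passed it. Markers of fibroblasts, which make much matrix in tissue, summed to 3.49 to 5.36 CPM, with 2 of 5 above 3 counts and LUM and THY1 at 0 in both inputs. Endothelial markers summed to 0 to 6.26 CPM (1 of 3 above 3 counts) and leukocyte markers to 2.23 to 5.08 CPM (1 of 3). The markers DCN, CDH5, PTPRC and CD3E add nothing to these sums, since they have no listed count and are not analysed here.

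Levels were compared between genes as counts per base of transcript, scaled to the same sum in every library. ADAMTS1, a secreted protease that cleaves large proteoglycans, had the highest level of all members, 948.6 in input of shCTL and 928.1 in input of shA5. It was followed by the lysyl hydroxylases PLOD1 (651 and 586) and PLOD3 (411 and 479) and by LAMC1, the gamma chain of most laminins (438 and 360). PLOD3 and LAMC1 changed places between the inputs. COL4A2 was the highest collagen (330 and 228), and COL27A1, a fibrillar collagen, stood at 211 and 95.9. The fibroblast collagen gene COL3A1 had 9 to 19 counts per library, and AGRN, ITGB1 and LAMB1 were close to absent in these counts, as described below.

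**Figure D1:**
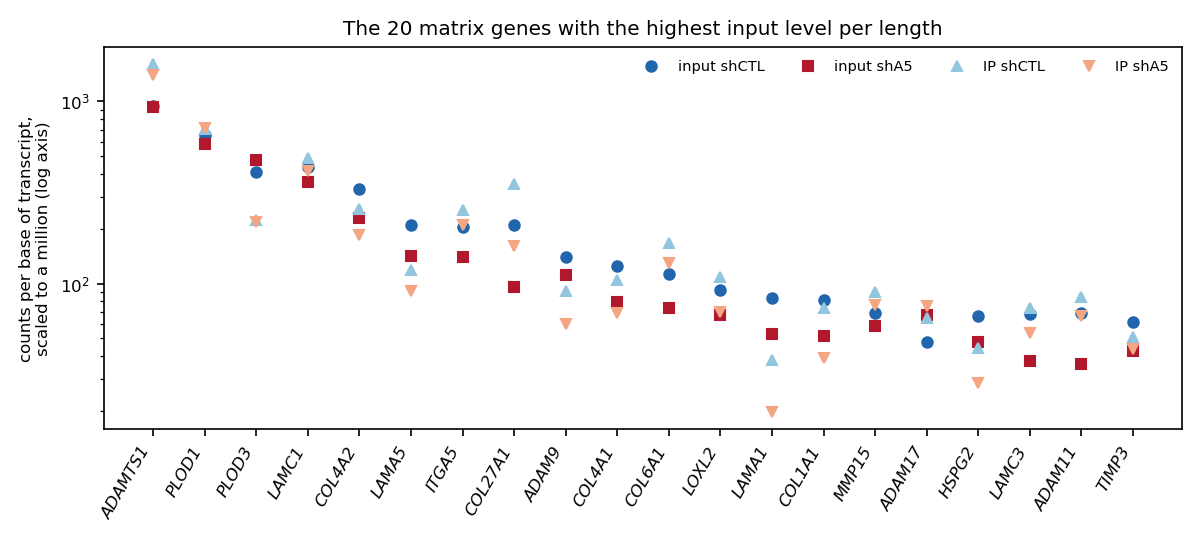
Level per base of transcript (counts per base scaled to the same sum in every library, log axis) of the 20 members with the highest mean input level, with 1 point per library for the inputs (circle, square) and m6A-IPs (triangles). ADAMTS1 is highest in all libraries, and for COL27A1 both shA5 points lie below the shCTL point of the same kind.

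The matrix genes were lower in shA5 as a group. Of the 46 members, 19 had input RNA at least 1.5-fold lower in shA5 (41.3%), where 6.43% of all genes were this much lower. Only MMP14 was at least 1.5-fold higher, beside 3.44% of all genes. The input change was below 0 for 41 members, beside 52.5% of all genes, and the interval lay wholly below 0 for 31 and wholly above 0 for 3, where it did so for 15.6% and 12.9% of all genes. The median log2 change of input RNA was -0.56 over the members and -0.02 over all genes. Without COL27A1 and COL6A2, the genes that led to the choice, the median was -0.54 and 17 of 44 members were at least 1.5-fold lower. Fewer cells that express a gene and less RNA per cell cannot be told apart in these bulk libraries.

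In the m6A-IPs, separate libraries of the same cells, the members were lower too, by less. The IP reads of 8 members were at least 1.5-fold lower in shA5 (17.4%), where 4.89% of all genes were, and 0 were at least 1.5-fold higher, beside 2.58% of all genes. The IP change was below 0 for 37 members, beside 52.3% of all genes, with a median of -0.38 against -0.02 for all genes. Both input and IP were below 0 for 35 members, beside 35.8% of all genes. Both were at least 1.5-fold lower for COL27A1, COL1A1, COL4A1, LAMA1, ITGA2B and ADAMTS7, which is 6 of 46 members beside 1.47% of all genes.

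**Figure D2:**
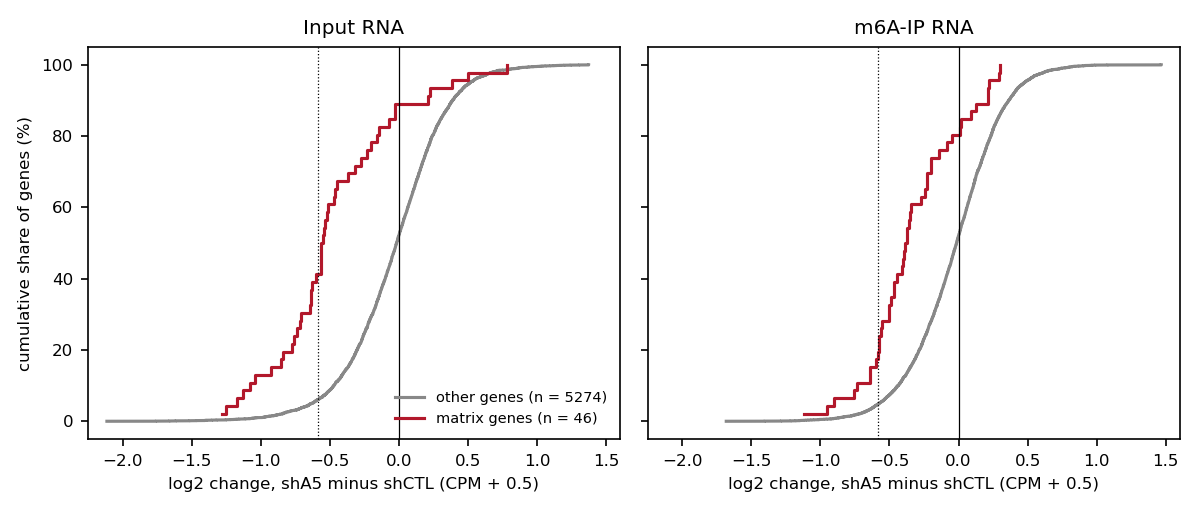
Cumulative share of genes (%) against the log2 change between shA5 and shCTL, for input RNA (left) and m6A-IP RNA (right), with the 46 members in red and the other 5274 genes in grey. The red curve lies to the left in both panels, with medians of -0.56 and -0.38, and the dotted line marks a 1.5-fold decrease.

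All 10 measured collagen genes had less input RNA in shA5. The 6 that were at least 1.5-fold lower were COL27A1, COL6A2, COL6A1, COL1A1, COL4A1 and COL23A1, and the class median was -0.62. COL27A1 (chr9:114155537-114312511, plus strand) had 1376 input counts in shCTL and 368 in shA5, and 3659 and 1342 IP counts. Its input RNA was 2.19-fold lower in shA5 (log2 -1.13, interval -1.30 to -0.96) and its IP reads were lower by nearly the same amount (-1.12, -1.21 to -1.03). Both shA5 libraries were thus low for this gene, and its m6A enrichment was 0.59 in shCTL and 0.60 in shA5 on the log2 scale.

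COL6A2, a chain of the beaded filaments of type VI collagen, was lower by more in input than in IP (chr21:46098112-46132848, plus strand). It had 189 input counts in shCTL and 52 in shA5, with 664 and 403 IP counts. Input RNA was 2.12-fold lower (-1.08, -1.56 to -0.64) while the IP change was -0.39 (-0.58 to -0.21). Its partner chain COL6A1, which lies beside it on chromosome 21, had 388 and 150 input counts and 925 and 579 IP counts, with changes of -0.60 (-0.88 to -0.32) and -0.35 (-0.50 to -0.20). The intervals of the input change of the 2 chains overlapped.

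COL4A1 and COL4A2 encode the chains of the network collagen of basement membranes, lie head to head on chromosome 13 and fell by similar amounts. COL4A1 (chr13:110148963-110307157, minus strand) had 679 and 256 input counts and 915 and 482 IP counts in shCTL and shA5, a log2 change of -0.63 in input (-0.85 to -0.43) and -0.60 in IP (-0.76 to -0.44). COL4A2 (chr13:110305812-110513209, plus strand) had 1766 and 715 input counts and 2205 and 1256 IP counts, a change of -0.53 in input (-0.66 to -0.41) and -0.49 in IP (-0.59 to -0.39). Both input changes lay near the collagen class median of -0.62. Because the genes lie head to head, the DNA between their RefSeq start sites is shown (GRCh38.p14). It is read on the plus strand, which is the strand of COL4A2. A link between this stretch and the changes was not tested. The Gencode gene of COL4A2 starts earlier, inside COL4A1. The stretch is 126 bases long and holds 1 CCAAT and 1 GGGCGG (GC box), in capitals, and 0 TATAAA, with both strands searched.
COL4A1 to COL4A2, chr13:110307158-110307283: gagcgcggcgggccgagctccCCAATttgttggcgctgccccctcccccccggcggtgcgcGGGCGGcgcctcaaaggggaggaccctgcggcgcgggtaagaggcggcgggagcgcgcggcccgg
In RefSeq promoter windows of 300 bases, 33 of the 46 members matched by symbol. GGGCGG was found in 30 of them (90.9%), in 75.9% of the 4275 matched genes with enough counts and in 44.9% of all 34943 windows. CCAAT was found in 30.3% of the members and 37.8% of the genes with enough counts, and TATAAA in 6.06% and 4.96%. These matches describe letters and not binding.

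COL1A1, the major chain of fibrillar type I collagen, had 401 and 150 input counts (-0.65, -0.93 to -0.37) and 578 and 246 IP counts (-0.90, -1.13 to -0.69), with overlapping intervals. COL23A1, a membrane-spanning collagen, had 72 and 25 input counts and 225 and 120 IP counts (-0.74, -1.47 to -0.08 in input). COL7A1, which forms the anchoring fibrils of skin, was the exception among the collagens in IP: it had 302 and 142 input counts (-0.32, -0.62 to -0.03) but 547 and 507 IP counts, a change of 0.22 (0.04 to 0.39). The cartilage collagen genes COL9A2 and COL9A3 had 20 to 250 counts per library and input changes of -0.56 and -0.52, with intervals that reached 0. COL9A3 shares 6.21% of its transcript with TCFL5 on the opposite strand.

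**Figure D3:**
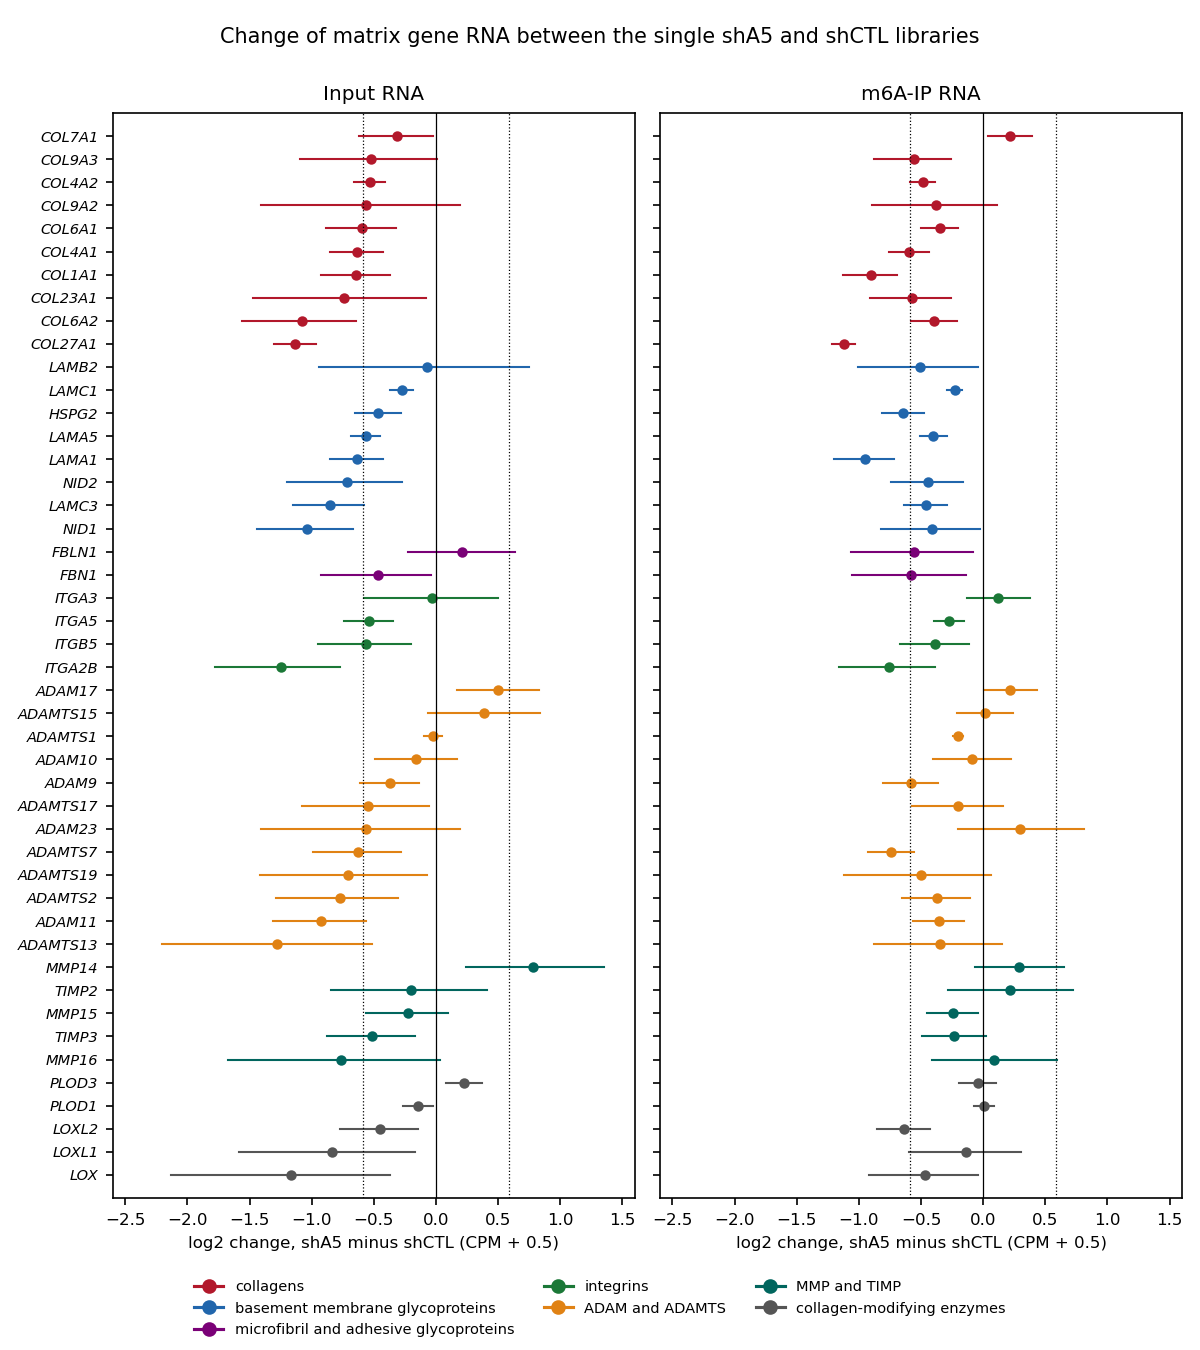
Log2 change between the single shA5 and shCTL libraries of each of the 46 members, for input RNA (left) and m6A-IP RNA (right), coloured by class, with exact 95% counting intervals and dotted lines at 1.5-fold. All 10 collagens and all 8 basement membrane genes lie below 0 in input, and MMP14 is the only member past 1.5-fold to the right.

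The 8 measured basement membrane glycoproteins were also all lower in shA5 input, with a class median of -0.60 and 4 of them at least 1.5-fold lower. NID1, which bridges laminin and type IV collagen, changed most: it had 257 input counts in shCTL and 73 in shA5, 2.05-fold lower (-1.04, -1.44 to -0.66). Its IP counts were 144 and 86, a smaller change of -0.41 (-0.82 to -0.02). Its paralog NID2 had 155 and 55 input counts (-0.72, -1.19 to -0.27), but 22.2% of its transcript overlaps RTRAF on the opposite strand. How the counting treated strand is not stated.

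The laminins are trimers of an alpha, a beta and a gamma chain. LAMA1, an alpha chain of the embryonic basement membrane, had 670 and 252 input counts (-0.64, -0.85 to -0.43) and 491 and 202 IP counts (-0.95, -1.20 to -0.72). LAMC3, a gamma chain, had 424 and 137 input counts (-0.86, -1.15 to -0.58) and 737 and 426 IP counts (-0.46, -0.64 to -0.29). LAMA5, the broadly used alpha chain, had 2010 and 796 input counts, a change of -0.56 (-0.69 to -0.45) that missed 1.5-fold. LAMC1 was the most counted and least changed of the deeply counted laminins, with 2895 and 1404 input counts and 5158 and 3513 IP counts, a change of -0.27 (-0.37 to -0.18) in input and -0.23 (-0.29 to -0.17) in IP. The interval of LAMC1 did not overlap that of LAMA1, LAMA5 or LAMC3. LAMB2, the only beta chain with enough counts, had 36 and 20 input counts (-0.07, -0.94 to 0.75) and 104 and 58 IP counts, so its interval overlapped those of all the other chains. Perlecan (HSPG2), the heparan sulfate proteoglycan of the basement membrane, had 794 and 337 input counts (-0.46, -0.65 to -0.28) and 846 and 432 IP counts (-0.64, -0.81 to -0.48). Exons of LDLRAD2 overlap 11.6% of the HSPG2 transcript on the other strand.

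Of the microfibril and adhesive class only FBN1 and FBLN1 were counted well enough. FBN1, the backbone of elastic microfibrils, had 147 and 62 input counts and 119 and 63 IP counts, with changes of -0.47 and -0.58. FBLN1, an elastic fibre and basement membrane protein, moved the other way in input, with 115 and 78 input counts (0.21, -0.22 to 0.64) and 104 and 56 IP counts (-0.55, -1.06 to -0.09).

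The 4 measured integrin subunits had input changes below 0, with a median of -0.55. ITGA2B, known as the alpha subunit of the platelet fibrinogen receptor, had 176 and 43 input counts, 2.38-fold lower (-1.25, -1.78 to -0.77), and 179 and 84 IP counts (-0.76, -1.16 to -0.38). ITGA5, the fibronectin receptor subunit and the most counted integrin here, had 722 and 291 input counts (-0.54, -0.74 to -0.34) and 1433 and 945 IP counts (-0.27, -0.40 to -0.16). ITGB5, a partner of the alpha V subunit, had 215 and 85 input counts (-0.56, -0.95 to -0.20). ITGA3, a laminin receptor subunit, differed little, with 82 and 47 input counts (-0.03, -0.58 to 0.50) and 284 and 247 IP counts (0.12, -0.13 to 0.38).

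Among the ADAM and ADAMTS proteases 5 of 12 were at least 1.5-fold lower in shA5 input, and 2 of 12 were above 0. ADAMTS13, the protease of von Willebrand factor, had 68 and 16 input counts, 2.43-fold lower (-1.28, -2.20 to -0.52), and 85 and 53 IP counts. Its counts were spread over 4 listed transcripts, with 45.5% on the most counted one. ADAM11, a family member without protease activity, had 260 and 80 input counts (-0.92, -1.31 to -0.56) and 517 and 322 IP counts (-0.36, -0.56 to -0.15). ADAMTS2, which removes the amino-terminal propeptide of procollagen, had 141 and 48 input counts (-0.78, -1.29 to -0.30). The other members of this class past 1.5-fold were ADAMTS19 with 76 and 27 input counts (-0.71, -1.41 to -0.07) and ADAMTS7 with 251 and 95 (-0.63, -0.99 to -0.28).

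ADAMTS1 stood apart as the most abundant member and one of the least changed. It had 4102 and 2363 input counts, a log2 change of -0.02 (-0.10 to 0.05), and 11072 and 7686 IP counts, a change of -0.20 (-0.24 to -0.16). ADAM17, the sheddase that releases tumour necrosis factor, was higher in shA5, with 175 and 145 input counts (0.50, 0.17 to 0.83) and 379 and 352 IP counts (0.22, 0.01 to 0.43), but 30.1% of its transcript overlaps IAH1 on the opposite strand. ADAM10, the sheddase of Notch receptors, had 225 and 118 input counts (-0.16, -0.49 to 0.17). ADAM9, another sheddase of this family, had 470 and 213 (-0.37, -0.61 to -0.13). ADAMTS15 was the other member of this class above 0, with 99 and 76 input counts (0.39, -0.06 to 0.84) and 374 and 302 IP counts. ADAMTS17 had 118 and 47 input counts (-0.55, -1.08 to -0.06).

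Among the MMP and TIMP genes the input median was -0.23 over 5 genes, and only the intervals of MMP14 and TIMP3 excluded 0. MMP14, a membrane-anchored collagenase, was the only member at least 1.5-fold higher in input, with 56 counts in shCTL and 57 in the shallower shA5 library (0.78, 0.24 to 1.35) and 135 and 132 IP counts (0.29, -0.06 to 0.65). MMP16, another membrane-anchored MMP, had 50 and 17 input counts (-0.76, -1.67 to 0.03), so its interval reached 0. MMP15 had 234 and 117 (-0.23, -0.56 to 0.10), and TIMP3, the inhibitor that binds to the matrix, had 237 and 97 (-0.51, -0.87 to -0.17). TIMP2, another inhibitor, had 67 and 34 (-0.20, -0.85 to 0.41).

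Of the 5 collagen-modifying enzymes 2 were at least 1.5-fold lower in shA5 input, both of them lysyl oxidases, which cross-link collagen outside the cell. LOX had 59 and 15 input counts (-1.17, -2.13 to -0.37) and LOXL1 had 74 and 24 (-0.84, -1.58 to -0.17). LOXL2 had 287 and 123 input counts (-0.45, -0.77 to -0.14) and 541 and 277 IP counts (-0.64, -0.85 to -0.43). Of the lysyl hydroxylases, which act on collagen inside the cell, PLOD1 had 1616 and 857 input counts (-0.14, -0.27 to -0.02) and PLOD3 had 967 and 664 (0.23, 0.08 to 0.37). The interval of PLOD3 overlapped neither LOX nor LOXL1 and that of PLOD1 overlapped LOXL1 and LOXL2 but not LOX. LOXL1 and LOXL2 each have an antisense lncRNA, which covers 9.89% of the LOXL1 transcript.

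Genes that work with the matrix were taken from 6 lists, and none of those measured is a member. With 6.43% of all genes at least 1.5-fold lower in input, that share comes to less than 1 gene in each list. None of the 12 measured collagen biosynthesis partners was 1.5-fold lower in shA5 input, with a median of -0.20: the collagen chaperone FKBP10 stood at -0.34 and P4HB, the beta subunit of prolyl 4-hydroxylase, at 0.07. The 7 matricellular and other matrix genes likewise had 0 past 1.5-fold, with a median of -0.19, and PXDN, a peroxidase that cross-links type IV collagen, at -0.33. MFAP1, at 0.47, is in this list by its name as a microfibril-associated protein but is better known as a spliceosome protein of the nucleus. In the integrin adhesion complex 2 of 13 were lower, PARVA (-1.11) and TNS3 (-0.68), while the median was -0.06, with talin (TLN1) at -0.06 and ACTN4 at 0.16. Other matrix receptors came nearest to the members, with a median of -0.43 over 11 genes and 3 past 1.5-fold, the proteoglycans GPC2 (-0.82), GPC4 (-0.63) and CSPG4 (-0.61), and with LRP1 at -0.52. The 5 metalloprotease regulators had 0 lower and a median of 0.02, with BSG at 0.10 and RHBDF1 at -0.13. In the TGF-beta pathway, a main inducer of matrix genes, 1 of 9 was lower, the inhibitory SMAD6 (-0.92), with a median of 0.08 and SKI at 0.17.

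m6A enrichment of the matrix genes ran from -1.64 to 1.09 in shCTL and from -1.71 to 1.68 in shA5 on the log2 scale, where all genes ran from -5.62 to 2.48 and from -4.90 to 3.14. IP exceeded input at least 1.5-fold for 8 members in shCTL, where 22.5% of all genes did, and for 11 members in shA5, where 24.3% did. IP was at or below 1/1.5 of input for 12 members in shCTL (30.3% of all genes) and for 10 in shA5 (31.7% of all genes). Over the members log2 enrichment had a median of -0.02 in shCTL and 0.16 in shA5, against -0.11 and -0.10 for all genes. These medians depend on GC content, since with the GC trend over all genes removed they were -0.27 and -0.22. The ranks of the members were similar in both cell populations (Spearman's rho 0.84 over 46 genes, 0.93 over all genes), as a description across genes.

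On the mean of both populations COL6A2 was the most enriched member and LAMA1 the least, while in shCTL alone ADAMTS15 and NID1 held these places and in shA5 alone COL6A2 and FBLN1. COL6A2 had a log2 enrichment of 0.99 (0.76 to 1.24) in shCTL and 1.68 (1.27 to 2.14) in shA5. ITGA3 followed (0.96 and 1.12), then ADAMTS15 (1.09 and 0.72), COL23A1 (0.82 and 0.98) and ADAMTS7 (0.77 and 0.66). At the low end stood LAMA1 (-1.26 and -1.58), NID1 (-1.64 and -1.01), FBLN1 (-0.95 and -1.71), FBN1 (-1.11 and -1.22) and PLOD3 (-1.02 and -1.29). No interval of the 5 highest members overlapped one of the 5 lowest. With the GC trend removed these lists changed. COL6A2 moved to 0.42 and 1.01, so that ADAMTS1 (0.72 and 0.56) and LOX (0.71 in shCTL) lay above it in shCTL. COL23A1 (0.30 and 0.37) and ADAMTS7 (0.25 and 0.05) also fell below ADAMTS1. LAMA5 moved from -0.96 and -0.80 to -1.53 and -1.48. By class, the collagens had median enrichments of 0.24 in shCTL and 0.51 in shA5, and the basement membrane glycoproteins -0.37 in both. These class medians keep the GC trend, and the collagens are GC-rich (median 64.2%). With the trend removed, COL27A1 stood at 0.29 and 0.25, COL6A1 at 0.03 and 0.21, and COL4A2 at -0.82 in both.

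**Figure D4:**
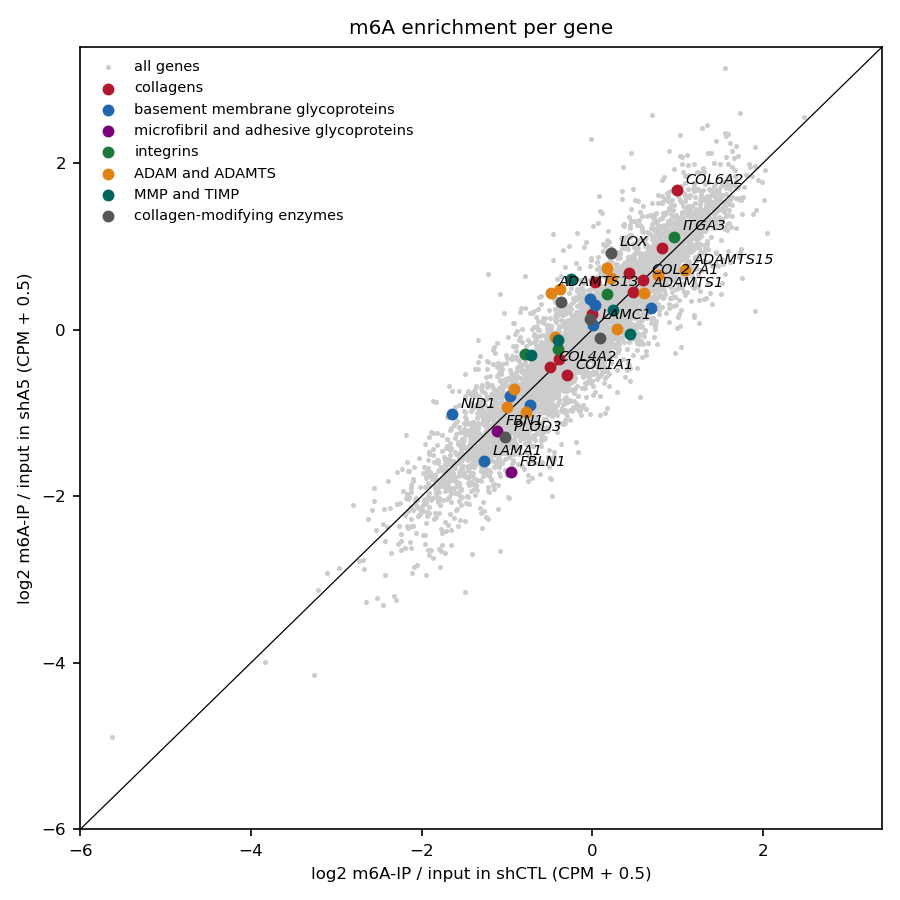
Log2 ratio of m6A-IP to input (CPM + 0.5) of each gene in shCTL (horizontal) and shA5 (vertical), with all 5320 genes in grey and the 46 members coloured by class, and the line of equal values. COL6A2 and ITGA3 lie at the upper end of the members, and LAMA1 and FBLN1 at the lower end.

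To show what the antibody could meet in these transcripts, GGACU, the best known form of the RRACH motif, was located in the 5 most and 5 least enriched members (GGACT in DNA letters). Sites far from a junction, meaning more than 100 bases from the nearest one, numbered 11 in ADAMTS15, 2 in ITGA3 and 1 each in COL6A2, COL23A1 and ADAMTS7. In the least enriched members they numbered 2 in NID1, 1 each in LAMA1, FBN1 and PLOD3, and 0 in FBLN1. LAMA1 has 11 GGACT in all, 10 of them nearer to a junction. Windows of 25 bases around a far site in members of both kinds are given, with the motif in capitals and its hg38 position.
COL6A2 exon 28 of 28, coding, chr21:46132492-46132496: tccacgagaaGGACTatgacagcct
ITGA3 exon 4 of 26, coding, chr17:50068154-50068158: acctagagctGGACTccagtgatga
NID1 exon 2 of 20, coding, chr1:236048884-236048888: ctttcctggcGGACTtggacacgac
PLOD3 exon 19 of 19, 3′ UTR, chr7:101206044-101206048: gggcttctggGGACTccccgcgtga
A match shows the letters only, since the counts do not say which site carries m6A.

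The members differ from other genes in exon layout. Their transcripts had a median of 23.5 exons and 40.3% of bases more than 100 bases from a junction, against 9 exons and 67.3% for all genes. The collagens had 41.5 exons, a median internal exon of 54 bases and 29.4% of bases far from junctions. RRACH occurred 14.3 times per kb in members and 13.3 in all genes, but far from junctions 6.05 times per kb in members and 8.15 in all genes. Across the members, log2 enrichment averaged over both populations had a rho of 0.27 with the share of bases far from junctions and of 0.34 with GC content, close to 0.27 and 0.38 over 5307 genes. The number of exons had a rho of -0.05 over the members and -0.27 over all genes. COL7A1 shows the spread: it has 118 exons and 3.7% of bases far from a junction, yet its enrichment was 0.04 in shCTL and 0.57 in shA5. These rhos are descriptions over genes that share libraries.

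**Figure D5:**
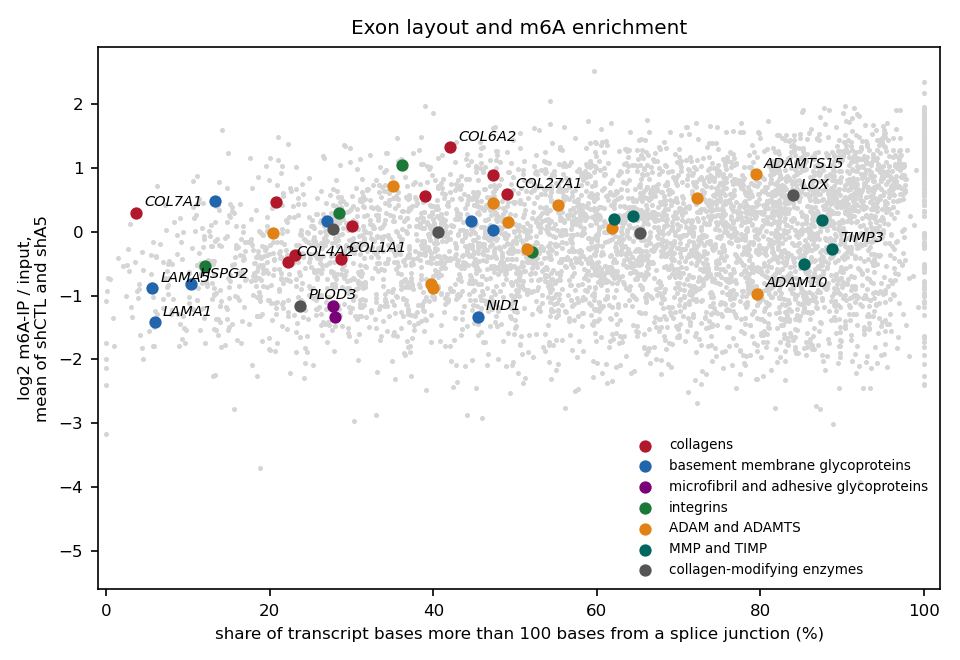
Share of transcript bases more than 100 bases from a splice junction (%, horizontal) against log2 m6A-IP to input, averaged over shCTL and shA5 (vertical), for all genes in grey and the 46 members coloured by class. The members spread from 3.71% (COL7A1) to 88.8% (TIMP3), with a median share of 40.3% against 67.3% for all genes.

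The change of enrichment in shA5 was above 0 for 30 of the 46 members, beside 2684 of all 5320 genes. Its median was 0.16 over the members, 0.0036 over all genes, and 0.02 over the members that averaged 200 or more counts. It was at least 1.5-fold higher for 7 members, beside 5.38% of all genes, and at least 1.5-fold lower for FBLN1 alone, beside 5.09% of all genes. This change is the IP change minus the input change, so it shares the input reads with the fall in input RNA and is not independent of it. The 7 were COL6A2 (0.69, 0.21 to 1.20), NID1 (0.63, 0.06 to 1.19), ADAMTS13 (0.94, -0.02 to 1.99), LOX (0.70, -0.24 to 1.76), LOXL1 (0.70, -0.13 to 1.57), ADAM23 (0.86, -0.06 to 1.85) and MMP16 (0.85). The intervals reached 0 for these 7 apart from COL6A2 and NID1. ADAM23, a relative of ADAM11 without protease activity, had 51 and 20 input counts and 69 and 68 IP counts. FBLN1 changed by -0.76 (-1.44 to -0.12). Over all 46 members the interval of this change lay above 0 for 8 and below 0 for 3, where it did so for 8.18% and 8.06% of all genes. Those above 0 that missed 1.5-fold were ADAM11 (0.57), COL7A1 (0.53, 0.19 to 0.88), LAMC3 (0.39, 0.06 to 0.73), ITGA5 (0.26, 0.03 to 0.50), LAMA5 (0.16) and PLOD1 (0.15). Those below 0 were FBLN1, PLOD3 (-0.27, -0.48 to -0.06) and ADAMTS1 (-0.18, -0.26 to -0.09). Some deeply counted members had narrow intervals that held 0: COL27A1 0.01 (-0.18 to 0.20), LAMC1 0.04 (-0.07 to 0.16) and COL4A2 0.05 (-0.12 to 0.21).

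GC content and transcript length were set beside the fall in input RNA, because the members are GC-rich (median 58.9% against 51.4% for all genes). Within quartiles of GC content the median input change of the members was -0.37, -0.51, -0.56 and -0.56 from low to high GC, and that of the other genes was -0.01, 0.03, 0.01 and -0.11. Within the upper 3 quartiles of length the members' medians were -0.56, -0.51 and -0.56, against -0.03, -0.01 and -0.02 for the other genes. The lowest GC quartile held 5 members and the highest 24, and the lowest length quartile held 1 member. Whether GC content or length contributes to the fall was not tested. The IP change of the members had a rho of -0.50 with the number of exons and of 0.47 with the share of bases far from junctions, where all genes had -0.08 and 0.12. The input change of the members had -0.19 and 0.05.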

How the data were processed

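The authors deposited raw counts per Ensembl transcript, with no normalization for depth or length. Per the labels, poly(A) RNA was used, and the submitters' processing notes name bcl2fastq 2.0, fastp 0.23.2, HISAT2, SAMtools 1.9, MACS2 and hg38. StringTie is named in the methods for quantifying genes. Whether it wrote these whole-number counts, and the annotation and treatment of strand and shared reads behind them, are not given in the sources used here. Gencode v44 holds 98.1% of the 28413 transcripts and gave lengths, exons and positions. The deposited length column was not used because some entries had become dates.

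Counts were summed per gene (0 blank names) and scaled to CPM by the total of each library. For shCTL, 3 counts equal 1.34 CPM (input) and 0.761 CPM (IP), and for shA5 2.29 CPM (input) and 0.953 CPM (IP). Log2 ratios used a pseudocount of 0.5 CPM, which pulls low genes toward 0, and genes that averaged 50 or more counts. The log2 changes printed for single genes under this minimum, and for sums of such genes, used no pseudocount. Called means past 1.5-fold. No p-value was computed, since each group has 1 library. Intervals are exact and conditional on the total (Clopper-Pearson, or the conditional odds ratio where enrichments are compared), and reads without molecular identifiers are not independent molecules.

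The members, lists and alternatives were chosen with earlier results of these data known. Named are COL27A1, COL6A2 and ALKBH5, the 3 most counted members of each class, members past 1.5-fold in any comparison of shA5 with shCTL, the 5 highest and 5 lowest in enrichment, and from each list the 2 most counted genes and those past 1.5-fold in input. The other members past the minimum are named to complete their classes. Members under it, apart from FBLN5, are named after their values were seen. The symbol rule also takes ITGB1BP1, ITGB1BP2, ITGB3BP and MMP24OS, which are not matrix genes and lie under the minimum. Of the 46 members, 31 had 1 listed transcript. Promoters are RefSeq windows. The alternatives were edgeR TMM factors, DESeq2 size factors, pseudocounts of 0.1 and 2 CPM, minimums of 10 and 200 counts or none, a 2-fold threshold, the most counted transcript only, the longest listed transcript for features, a lowess GC trend (span 0.3) removed, and other member sets. The steps were tested on simulated data. Tools were Python 3.11.15 (pandas 2.3.3, numpy 2.4.6, statsmodels 0.14.6, scipy 1.17.1, matplotlib 3.10.9), bedtools 2.31.1 and R 4.3.3 (edgeR 4.0.16, DESeq2 1.42.0).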

Additional observations from a re-analysis of the deposited data

How the results depend on the processing

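No paired analysis was possible because groups of 1 library hold no pairs, and for the same reason no replicate could be left out. Under TMM or size factors, other pseudocounts, the most counted transcript only, the members without binding-protein symbols and the members without COL27A1 and COL6A2, each count of members stayed within 1.5 times its value and each median kept its sign. No change between shA5 and shCTL of a named member whose interval excluded 0 reversed under any alternative, but the median enrichment, which is near 0, changed sign in shA5 with a minimum of 10 counts (-0.03) or with the GC trend removed (-0.22), and in shCTL with a minimum of 200 counts (0.03). Removing the GC trend also turned the sign of the enrichment of several named members in at least 1 population, among them ADAM11 in shCTL (-0.17), LOXL1 in shA5 (-0.39), MMP16 in shCTL (0.32), MMP15, ITGA5, LAMC3 and PLOD1. Counts of members follow the number of genes that pass a filter and the fold asked for. With a mean of at least 10 counts (81 members of 9269 genes, with the share of all genes in brackets here and for the other settings), input RNA was lower for 32 members (12.5%) and higher for 3 (9.32%), IP lower for 19 (10.2%) and higher for 2 (7.01%), enrichment higher in shA5 for 17 (12.6%) and lower for 6 (13.0%), enrichment at least 1.5-fold for 19 in shA5 (21.3%), and at or below 1/1.5 for 27 in shCTL (35.8%) and 24 in shA5 (37.8%). With a mean of at least 200 (24 members of 2491 genes), input was lower for 9 (3.33%) and higher for 0 (1.08%), IP lower for 7 (2.65%), enrichment higher for 1 (1.65%) and lower for 0 (1.08%), and enrichment was at least 1.5-fold for 5 in shCTL (29.1%) and 6 in shA5 (31.0%) and at or below 1/1.5 for 5 in each (21.7% and 23.7%). With no filter (135 members of 14911 genes), input was lower for 50 (19.9%) and higher for 16 (15.3%), IP lower for 37 (17.7%) and higher for 21 (14.5%), enrichment higher for 41 (22.7%) and lower for 26 (21.4%), at least 1.5-fold for 26 in shCTL (21.6%) and 39 in shA5 (24.5%), and at or below 1/1.5 for 46 (36.7%) and 43 (37.5%), and the median input change was -0.37. At 2-fold (46 members of 5320 genes), input was lower for 6 (1.15%) and higher for 0 (0.470%), IP lower for 1 (0.545%), enrichment higher for 0 (0.846%) and lower for 0 (0.771%), at least 2-fold for 1 in shCTL (10.1%) and 2 in shA5 (12.0%), and at or below the inverse for 5 in each (16.9% and 18.4%). With the GC trend removed, enrichment was at least 1.5-fold for 5 members in shCTL (21.3% of all genes) and 5 in shA5 (22.4%). Input was then at least 1.5-fold lower for 15 members (5.54%), where 19 were lower without this step, and IP was lower for 9 (4.50%). The cause of these differences was not tested. Of 1140 recomputed values of named genes 41 moved by more than their interval, all with the GC trend removed, and among changes between shA5 and shCTL only the input change of LAMA5 did, to -0.37. At this depth the input change of a member with about 50 counts has an interval more than 1 log2 unit wide.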

Other observations

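The 89 members under the count minimum were summed, since single ones are too shallow. Together they had 1124 input counts in shCTL and 523 in shA5, a log2 change of -0.33 (-0.49 to -0.18), and 1368 and 976 counts in the m6A-IPs, a change of -0.16 (-0.28 to -0.042). The sum rests in part on 3 genes with few counts in the shA5 input, COL18A1, FBLN5 and MMP2: without them, an alternative chosen after seeing the data, the input counts were 995 and 515, a change of -0.18 (-0.34 to -0.024), and the IP change was -0.09 (-0.22 to 0.036). The 9502 other genes under the minimum, summed in the same way, changed by 0.0018 in input and by -0.03 in IP. Of the 89 members, 54 had a mean under 10 counts and 24 had at most 3 counts in every library. The interval of the input change lay below 0 for 6 of 55 members with more than 3 counts in an input (10.9%) and above 0 for 1 (1.82%), beside 5.27% and 5.24% of the 6264 such genes under the minimum.

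The following members, apart from FBLN5, were chosen after their values were seen. The log2 changes in this paragraph carry no pseudocount, so they are not on the same footing as those of members above the minimum. COL18A1, whose cleavage releases endostatin, had 67 input counts in shCTL and 6 in shA5 (log2 -2.71, -4.21 to -1.51), with 88 and 37 IP counts. It lay just under the minimum with a mean of 49.5 counts, and 28.9% of its transcript overlaps SLC19A1 on the opposite strand. FBLN5, an elastic fibre protein, had 38 and 1 input counts (-4.48, -9.82 to -1.91) and 46 and 26 IP counts, and MMP2, a gelatinase, had 24 and 1 input counts (-3.81, -9.18 to -1.20) and 44 and 21 IP counts. For these 3 genes the shA5 input was low and the shA5 m6A-IP was less so. ITGA8, also just under the minimum with a mean of 47.5, had 64 and 50 input counts, and the members just above it, MMP16 and ADAM23, had means of 51.0 and 52.0.

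Some matrix genes had few counts in every library. ITGB1, the common beta subunit of most integrins, had 15 and 9 input counts in shCTL and shA5, and 21 and 17 IP counts. LAMB1 had 9 and 4 input counts and 16 and 11 IP counts, and AGRN had 1 count in all. The MANE transcript, the representative one chosen jointly by Ensembl and RefSeq, is not among the listed transcripts of LAMB1 and AGRN, while it is listed for 75 of the 89 members under the minimum and is the most counted transcript of 44 of the 46 above it. Whether reads of these genes were lost in counting was not tested.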
